A study of Mus musculus with 6 samples.

Results

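The *Zscan4* cluster is a family of tandem copies on mouse chromosome 7, of which 5 were examined here: *Zscan4a*, *Zscan4b*, *Zscan4c*, *Zscan4d* and *Zscan4f*. They are 5 of the 16668 genes listed in the series, and all 5 passed the filter on low values, which asked for 0.5 RPKM or more on average. RPKM is the number of reads per kilobase of exon, scaled to the mapped reads of the library. The members were chosen by their levels in these same libraries, so those levels are given as a description without a test. Because the copies share most of their sequence, their summed RPKM was treated as 1 locus.

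The RNA sequenced came from E14 cells, a mouse embryonic stem (mES) cell line of strain 129/Ola, at passage 3-5. All cells were grown without feeders in 2i medium, which holds the inhibitors PD0325901 and CHIR99021, with LIF, and all carried a wild-type genotype. The 6 libraries were labelled as 3 siRNA groups of 2, namely control, Ring1B-KD and Dzip3-KD. Ring1B, the product of *Rnf2*, and Dzip3 both attach ubiquitin to histone H2A. A library is called by its label and replicate number below, whatever its actual treatment. The study describes the libraries of a group as biological duplicates. siRNA lowers a transcript in a culture without removing the gene.

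Each deposited table also carries a number and a condition word in its name, and the word differed from the sample label for 4 of the 6 libraries. The tables numbered 1 to 3 are called the first set and those numbered 4 to 6 the second set. In the first set, the library labelled control 1 had the word control, control 2 had Ring1BKD, and Ring1B-KD 1 had Dzip3KD. In the second set, the library labelled Ring1B-KD 2 had the word control, Dzip3-KD 1 had Ring1BKD, and Dzip3-KD 2 had Dzip3KD. Comparisons by label and by word are therefore both given, and every fit across genes used the labels. By word there was 1 library for each condition in a set, so those differences have no replicate check within a set.

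*Zscan4* genes encode proteins with a SCAN domain and zinc fingers. They are transcribed in the mouse embryo at the 2-cell stage and, in mES cell cultures, in a small and changing fraction of cells, which at that time also transcribe other genes of the early embryo. Zscan4 is known for its part in telomere elongation and genome stability in mES cells. Ring1B is the catalytic subunit of Polycomb repressive complex 1, several forms of which repress genes of the germ line and early embryo.

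On mm9, 4 of the 5 copies had a gene model, and they spanned 502 kb of chromosome 7, from 11486098 to 11988090. *Zscan4b* lay on the minus strand from 11486098 to 11490399, and *Zscan4c* on the plus strand from 11591071 to 11595896. *Zscan4d* lay on the minus strand from 11746992 to 11751497, and *Zscan4f* on the plus strand from 11983264 to 11988090. Each had a transcript of 4 exons. *Zscan4a* had no entry in this annotation, and RefSeq lists it as a transcribed pseudogene.

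The promoters of the copies are shown first, to show how alike the copies are in sequence, while the likeness of their transcripts, which bears on read assignment, is given further below. RefSeq promoter windows (GRCm38.p6, a different build from that of the reads) matched 4 of the 5 copies. After alignment, 216 bases upstream of the annotated start were shared by all 4 without a gap. In the lines that follow, written 5′ to 3′ on the strand of the gene, capitals mark the 12 columns at which the copies differ. The window was chr7:10905051-10905266 (minus strand) for *Zscan4b*, chr7:11005506-11005721 (plus strand) for *Zscan4c*, chr7:11166183-11166398 (minus strand) for *Zscan4d* and chr7:11397699-11397914 (plus strand) for *Zscan4f*.
Zscan4b: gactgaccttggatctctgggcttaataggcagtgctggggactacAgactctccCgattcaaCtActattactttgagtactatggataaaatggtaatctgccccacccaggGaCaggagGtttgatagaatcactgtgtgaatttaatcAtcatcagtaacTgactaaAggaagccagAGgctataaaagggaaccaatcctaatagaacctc
Zscan4c: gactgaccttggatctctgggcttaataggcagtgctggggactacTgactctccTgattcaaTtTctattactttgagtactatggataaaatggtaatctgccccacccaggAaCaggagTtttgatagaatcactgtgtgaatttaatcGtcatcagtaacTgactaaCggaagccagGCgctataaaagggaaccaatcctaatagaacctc
Zscan4d: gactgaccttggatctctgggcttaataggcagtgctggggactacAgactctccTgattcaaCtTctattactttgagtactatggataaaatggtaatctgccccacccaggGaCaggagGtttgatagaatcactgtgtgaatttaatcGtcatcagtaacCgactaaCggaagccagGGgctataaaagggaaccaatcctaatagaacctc
Zscan4f: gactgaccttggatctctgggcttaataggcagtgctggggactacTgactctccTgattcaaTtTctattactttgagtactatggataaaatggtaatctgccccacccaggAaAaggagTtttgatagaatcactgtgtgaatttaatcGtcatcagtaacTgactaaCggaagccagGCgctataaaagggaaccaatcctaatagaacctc

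*Zscan4c* and *Zscan4f* were the closest pair, with 215 of 216 bases identical, or 99.5%. *Zscan4b* and *Zscan4f* were the most distant pair, with 205 of 216 bases identical, or 94.9%. The letters TATAAA, searched on both strands, occurred once in the 300 bases around each start, at the same column of the alignment in all 4 copies. Counted from the start that RefSeq annotates for each copy, this was position -31 for *Zscan4b* and *Zscan4f*, -54 for *Zscan4c* and -65 for *Zscan4d*. Of the 32851 promoters of the same length in the table, 13.6% held these letters.

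The letters TGCACAC, described for Zscan4 itself, had no match in the 4 windows and were present in 4.4% of all promoters. The copies held between 1 and 4 CpG dinucleotides in 300 bases, against a median of 7 over all promoters. Their GC content was 46.3% to 47.7%, against a median of 52.7%.

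The depth recovered from the values was 3015349 to 3583612 mapped reads per library, so that 3 reads over 2 kb of exon amount to 0.419 to 0.497 RPKM. Every value of the 5 copies was a whole number of reads, from 73 to 980 reads per copy and library. The embryonic stem cell markers *Pou5f1*, *Sox2*, *Nanog*, *Esrrb*, *Zfp42*, *Klf4*, *Tdgf1* and *Utf1* were listed in every library, with a sum of 1141 to 1444 RPKM. All 8 were lower with the word Ring1BKD than with the word control in both sets, at ratios of 0.784 to 0.879 in the first and 0.71 to 0.911 in the second, where 40.7% of all genes were lower in both sets. Their median log2 difference was -0.26 and -0.29, beside -0.06 and -0.11 over all genes, and the part of this in the *Zscan4* values was not tested. Of 6 fibroblast feeder markers 4 were listed, with a sum of 1.18 to 3.1 RPKM, mostly from *Thy1*, while *Col1a1* stayed between 0 and 0.353 RPKM. Of 5 primitive endoderm markers all were listed, with a sum of 0.999 to 2.79 RPKM, and of 5 trophectoderm markers 4 were listed, with a sum of 0.896 to 2.66 RPKM, mostly from *Eomes*. *Cdx2* was at 0 in 3 libraries.

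The summed level of the locus differed several-fold between libraries, including libraries with the same label. It was 203 RPKM in the library labelled control 1 and 479 RPKM in control 2. The sum reached 172 and 90.3 RPKM in Ring1B-KD 1 and 2, and 386 and 80.7 RPKM in Dzip3-KD 1 and 2. The libraries labelled control 2 and Dzip3-KD 1, whose file word was Ring1BKD in both cases, were the highest of the 6. In reads, the locus took 1246, 3342, 1173, 606, 2558 and 587 in the order just given. Its share of the summed RPKM of all genes ran from 0.0593% in Dzip3-KD 2 to 0.359% in control 2. In bulk RNA, a larger fraction of cells expressing *Zscan4* and more *Zscan4* RNA per cell cannot be told apart.

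**Figure D1:**
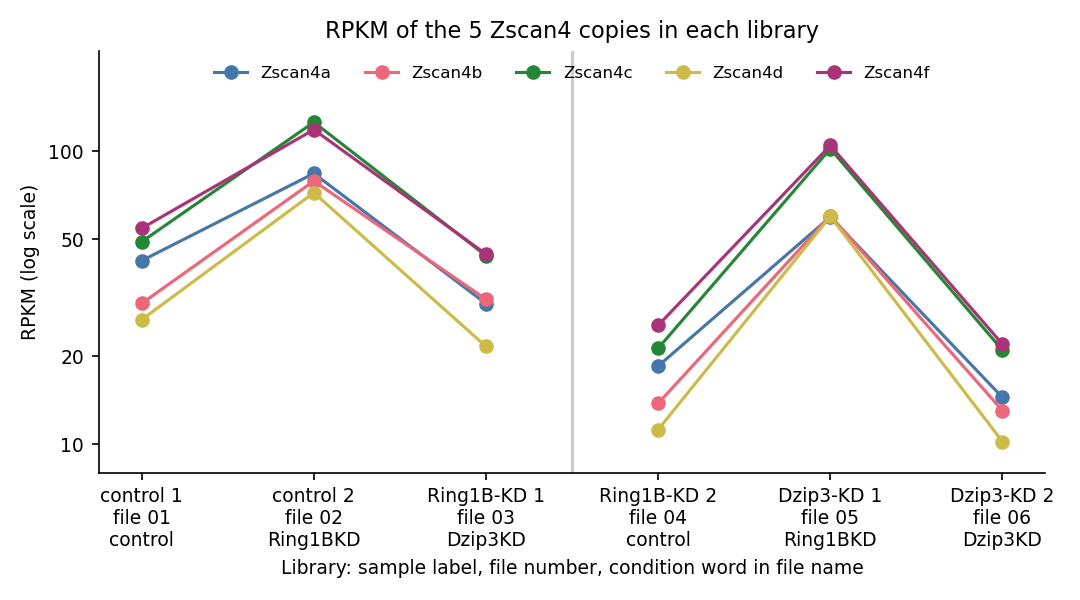
RPKM (log axis) of each of the 5 *Zscan4* copies in the 6 libraries, with the sample label, the file number and the condition word of each library under the axis; lines join the libraries of a set and each point is 1 library. All 5 copies peak in the library labelled control 2 in the first set and in Dzip3-KD 1 in the second set, the libraries with the word Ring1BKD.

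By copy, the libraries fell in nearly the same order. *Zscan4c*, the copy best known from reporter lines for the 2-cell-like state, was at 49.1 and 126 RPKM in control 1 and 2, at 44 and 21.3 RPKM in Ring1B-KD 1 and 2, and at 102 and 21 RPKM in Dzip3-KD 1 and 2. *Zscan4f* was at 54.6 and 118 RPKM in control, at 44.6 and 25.5 RPKM in Ring1B-KD, and at 105 and 22 RPKM in Dzip3-KD. These were the highest copies by mean level, at 60.5 and 61.6 RPKM over the 6 libraries, and *Zscan4f* was above *Zscan4c* in 5 of 6 libraries.

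*Zscan4a* was at 42.3 and 84 RPKM in control, at 30.2 and 18.5 RPKM in Ring1B-KD, and at 59.7 and 14.5 RPKM in Dzip3-KD. *Zscan4b* was at 30.3 and 79.1 RPKM in control, at 31.3 and 13.8 RPKM in Ring1B-KD, and at 60.2 and 13 RPKM in Dzip3-KD. *Zscan4d*, the copy transcribed most strongly in the 2-cell embryo, was at 26.6 and 72.2 RPKM in control, at 21.6 and 11.2 RPKM in Ring1B-KD, and at 59.9 and 10.2 RPKM in Dzip3-KD. *Zscan4d* was the lowest copy in 5 of 6 libraries, with a mean of 33.6 RPKM. It also had the widest range, its highest library being 7.06 times its lowest, while *Zscan4f* had the narrowest at 5.39 times. The order of libraries was the same for all copies but *Zscan4b*, in which Ring1B-KD 1 stood just above control 1.

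By sample label, the replicates of a group lay far apart. As mean ± SD with n = 2 in each group, the locus sum came to 341 ± 195 RPKM in control, 234 ± 216 RPKM in Dzip3-KD and 131 ± 57.5 RPKM in Ring1B-KD. Within a group, the higher library was 2.36 times the lower for control, 1.9 times for Ring1B-KD and 4.79 times for Dzip3-KD. Dzip3-KD differed from each of the other groups by less than its own SD, while control and Ring1B-KD, which did not overlap, differed by more than the SD of either. On the log2(RPKM + 1) scale, the difference of group means was -1.32 for Ring1B-KD against control, -0.81 for Dzip3-KD against control and 0.50 for Dzip3-KD against Ring1B-KD.

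Both libraries labelled Ring1B-KD lay below both labelled control for the locus sum and for 4 of the 5 copies, the exception being *Zscan4b*. Of 11533 genes that passed the filter, members left out, 18.8% met the same condition. Leaving out 1 library kept the sign of this difference, at -1.94 to -0.70. Both differences that involve Dzip3-KD turned on a single library. Without Dzip3-KD 2, the difference against control went from -0.81 to 0.31, and without Dzip3-KD 1 it was -1.94. Without Dzip3-KD 1, the difference against Ring1B-KD went from 0.50 to -0.62, without Dzip3-KD 2 it was 1.63, and without Ring1B-KD 2 it was 0.04. Without control 2, the difference of Dzip3-KD against control was -0.20.

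By condition word, the locus was higher in the Ring1BKD library of each set. The ratio of Ring1BKD to control was 2.36 in the first set (labels control 2 over control 1; 95% interval 2.21 to 2.52) and 4.28 in the second set (labels Dzip3-KD 1 over Ring1B-KD 2; 3.91 to 4.67). The intervals are exact binomial intervals on the recovered reads and cover counting error only, as do all intervals given here. The ratio of Dzip3KD to control was 0.846 in the first set (Ring1B-KD 1 over control 1; 0.776 to 0.912) and 0.894 in the second set (Dzip3-KD 2 over Ring1B-KD 2; 0.796 to 1.00). Ring1BKD was 2.79 times Dzip3KD in the first set and 4.79 times in the second. For every word the library of the first set was above that of the second, and the mean over a set was 285 RPKM against 186 RPKM.

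Each copy followed the locus. The ratio of Ring1BKD to control in the first set ran from 1.98 for *Zscan4a* to 2.71 for *Zscan4d*, and in the second set from 3.23 for *Zscan4a* to 5.33 for *Zscan4d*. The ratio of Dzip3KD to control ran from 0.714 for *Zscan4a* to 1.03 for *Zscan4b* in the first set, and from 0.782 for *Zscan4a* to 0.986 for *Zscan4c* in the second.

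The transcripts targeted by the siRNAs were examined beside the locus, since the same libraries carry both. *Rnf2* was at 30.6 and 20.4 RPKM in control, at 26.8 and 28.8 RPKM in Ring1B-KD, and at 19.4 and 28.2 RPKM in Dzip3-KD. The lowest values were those of control 2 and Dzip3-KD 1, the libraries with the word Ring1BKD and the highest *Zscan4*, and the libraries labelled Ring1B-KD were not below both controls. By word, the ratio of Ring1BKD to control for *Rnf2* was 0.668 in the first set (0.556 to 0.801) and 0.674 in the second (0.559 to 0.812). *Dzip3* was at 2.24 and 2.68 RPKM in control, at 1.18 and 1.89 RPKM in Ring1B-KD, and at 1.7 and 1.31 RPKM in Dzip3-KD, or 23 to 53 reads. By label, both Dzip3-KD libraries were below both controls, as were both Ring1B-KD libraries. By word, the ratio of Dzip3KD to control for *Dzip3* was 0.527 in the first set (0.301 to 0.905) and 0.692 in the second (0.404 to 1.17), an interval that includes no difference. Whether the label or the word names the treatment of a library was not tested.

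**Figure D2:**
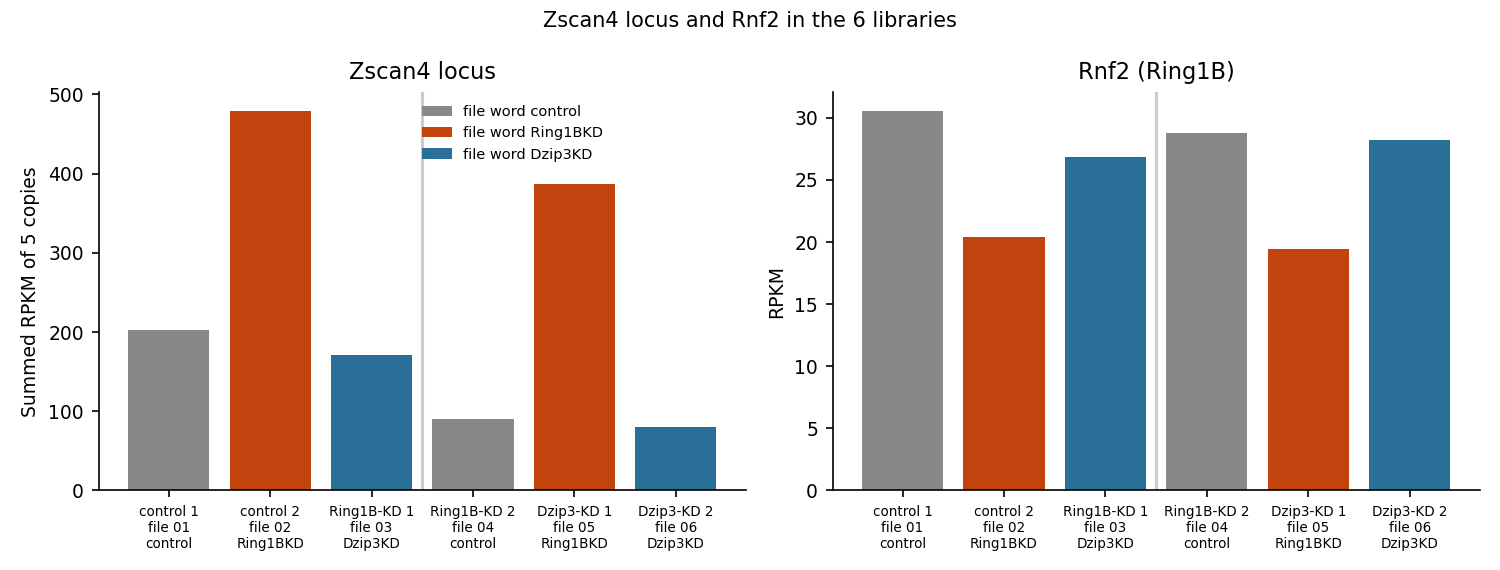
Bars give the summed RPKM of the 5 *Zscan4* copies (left) and the RPKM of *Rnf2*, the gene of Ring1B (right), in each library, coloured by condition word, with label, file number and word under the axis; there is 1 library per bar and no error bar. The libraries labelled control 2 and Dzip3-KD 1 (word Ring1BKD) have the highest *Zscan4* sums, 479 and 386 RPKM, and the lowest *Rnf2*, 20.4 and 19.4 RPKM.

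The share of the locus that each copy took was more even between libraries than its level. By RPKM, *Zscan4f* made up 24.7% to 28.2% of the sum, *Zscan4c* 23.6% to 26.4%, *Zscan4a* 15.4% to 20.9%, *Zscan4b* 14.9% to 18.2% and *Zscan4d* 12.4% to 15.5%. In reads, which do not correct for length, the share of *Zscan4a* varied most. It was 23.1% (95% Wilson interval 20.9% to 25.5%) in the library labelled control 1 against 19.4% (18.1% to 20.8%) in control 2. In the second set it was 22.8% (19.6% to 26.3%) in Ring1B-KD 2 against 17.2% (15.8% to 18.7%) in Dzip3-KD 1. In both sets the share of *Zscan4a* was thus lower with the word Ring1BKD, where the locus was highest, than with the word control. The intervals did not overlap, though only narrowly so in the first set. *Zscan4a* had no gene model on mm9, so how well reads can be assigned to it was not assessed. The share of *Zscan4a* did not simply fall as the locus rose. With the word Dzip3KD, where the locus was lowest in each set, it was 19.6% (Ring1B-KD 1) and 19.9% (Dzip3-KD 2). Both intervals overlapped that of the library with the word Ring1BKD in the same set. The share of *Zscan4d* in reads was higher with the word Ring1BKD than with control, at 14.8% and 15.2% against 12.8% and 12.2%. Here the intervals overlapped in each set.

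**Figure D3:**
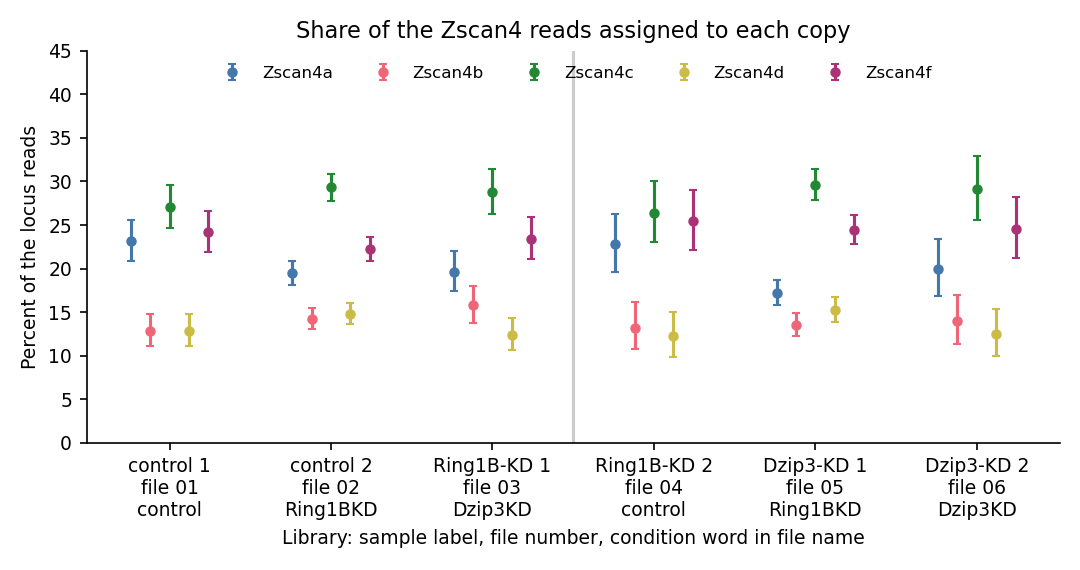
Percent of the recovered *Zscan4* reads assigned to each copy in the 6 libraries, with 95% Wilson intervals that cover counting error only; label, file number and condition word stand under the axis. *Zscan4a* falls to 17.2% in the library labelled Dzip3-KD 1 from 23.1% in control 1, while *Zscan4c* stays between 26.4% and 29.6%.

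How well reads can be assigned to 1 copy differed between copies. Main transcripts of *Zscan4c* and *Zscan4f* were 99.5% identical over 1806 aligned bases, and the lowest identity between any pair of the 4 annotated copies was 96.8%, between *Zscan4b* and *Zscan4d*. A window along a transcript counted as unique if found at most once in the mm9 genome and in no other annotated copy. Of windows of 36 bases, 2.95% were unique for *Zscan4f*, 6.96% for *Zscan4b*, 11.3% for *Zscan4c* and 39.1% for *Zscan4d*. With windows of 75 bases the shares were 7.46%, 17.8%, 23.6% and 60.1%. Windows across exon junctions, 97 to 99 per transcript at 36 bases and 214 to 216 at 75 bases, are absent from the genome. They were compared with the 4 annotated copies only, so these shares can be too high. The authors used uniquely mapped reads, and the read length is not given in the sources used here. *Zscan4f* thus had the fewest unique windows and the highest mean RPKM, and *Zscan4d* the most unique windows and the lowest mean. The levels of single copies are uncertain for this reason, and how the authors assigned reads that fit several copies was not tested.

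**Figure D4:**
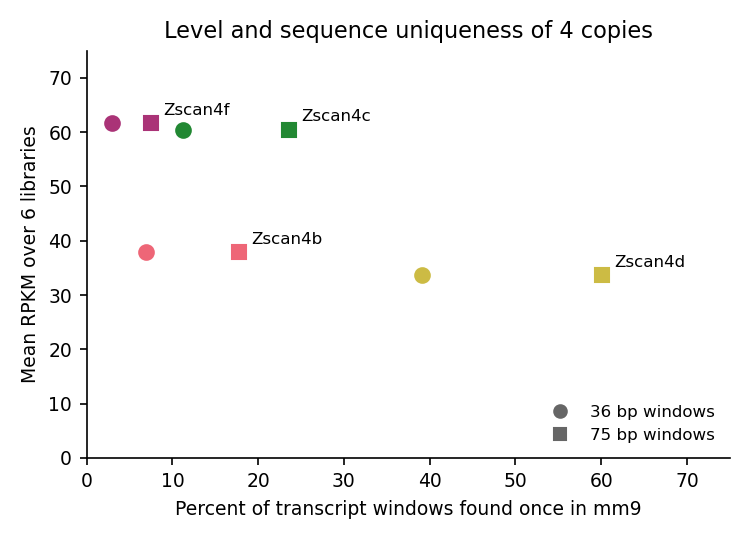
Mean RPKM over the 6 libraries of the 4 copies with an mm9 gene model, against the percent of their transcript windows that were unique. Windows were of 36 bp (circles) or 75 bp (squares). Unique windows were found at most once in the mm9 genome and in no other annotated copy, and include windows across exon junctions. *Zscan4d* has the most unique windows (60.1% at 75 bp) and the lowest mean, 33.6 RPKM, while *Zscan4f* has the fewest (7.46%) and the highest, 61.6 RPKM.

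Genes of the 2-cell-like state followed the locus. The list held 62 symbols, members left out, of which 49 were listed and 38 passed the filter. Their summed RPKM was 435 and 1010 in the libraries labelled control 1 and 2, 378 and 238 in Ring1B-KD 1 and 2, and 880 and 216 in Dzip3-KD 1 and 2. The order of the 6 libraries was that of the *Zscan4* locus. Several of these genes are themselves families of near-identical copies, and *Gm13040* and *Gm13057* had the same values in all libraries, so the 38 are not independent counts.

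The members of this list with the highest mean levels moved alike. *Gm5662* was at 56.9 and 129 RPKM in control, at 47.8 and 31.2 RPKM in Ring1B-KD, and at 121 and 27.1 RPKM in Dzip3-KD. *Tmem92*, a membrane protein gene transcribed in 2-cell-like cells, was at 15 and 46.5 RPKM in control, at 16.4 and 14.8 RPKM in Ring1B-KD, and at 63.8 and 16.2 RPKM in Dzip3-KD. In both, control 2 and Dzip3-KD 1 were the highest libraries. Ratios of Ring1BKD to control by word were 2.26 and 3.86 for *Gm5662*, 2.06 and 3.86 for *Gm2016*, 1.78 and 3.85 for *Gm8300*, 2.35 and 4.03 for *Gm6763*, 2.07 and 2.75 for *Gm2022*, and 3.09 and 4.31 for *Tmem92*, in the first and second set.

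Counted over the list on the log2(RPKM + 1) scale, 29 of 38 genes were over 2-fold higher with the word Ring1BKD than with the word control in the first set, where 1.25% of all 11533 genes were. In the second set 32 of 38 were, against 1.4% of all genes, and 28 of 38 were in both sets, against 0.572% of all genes. The list was chosen with earlier results of these data known, so the counts over it are a description without a test. 1 gene counted, *Gm16381*, passed the filter only through the libraries with the word Ring1BKD, at 2.14 and 1.57 RPKM. Elsewhere it was at 0.205 to 0.486 RPKM. The median log2 difference of the list was 1.13 in the first set and 1.52 in the second, beside -0.06 and -0.11 over all genes. Of the 5 *Zscan4* copies, 4 passed this mark in both sets, and *Zscan4a*, at 1.98-fold in RPKM in the first set, lay just under it. Both libraries with the word Ring1BKD were above the other 4 for 34 of 38 genes and for all 5 copies, against 4.26% of all genes. The 4 that did not meet this were *Tdpoz3*, *Pramel7*, *Gm13043* and *Pif1*, a DNA helicase gene, named here after their values were seen.

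No gene of the list was over 2-fold lower with the word Ring1BKD in both sets, as 0.0173% of all genes were. With the word Dzip3KD, 0 of 38 genes were over 2-fold higher and 0 over 2-fold lower than with the word control in both sets, where 0.0434% and 0.052% of all genes were. The median log2 difference of the list for Dzip3KD was -0.10 and -0.14.

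**Figure D5:**
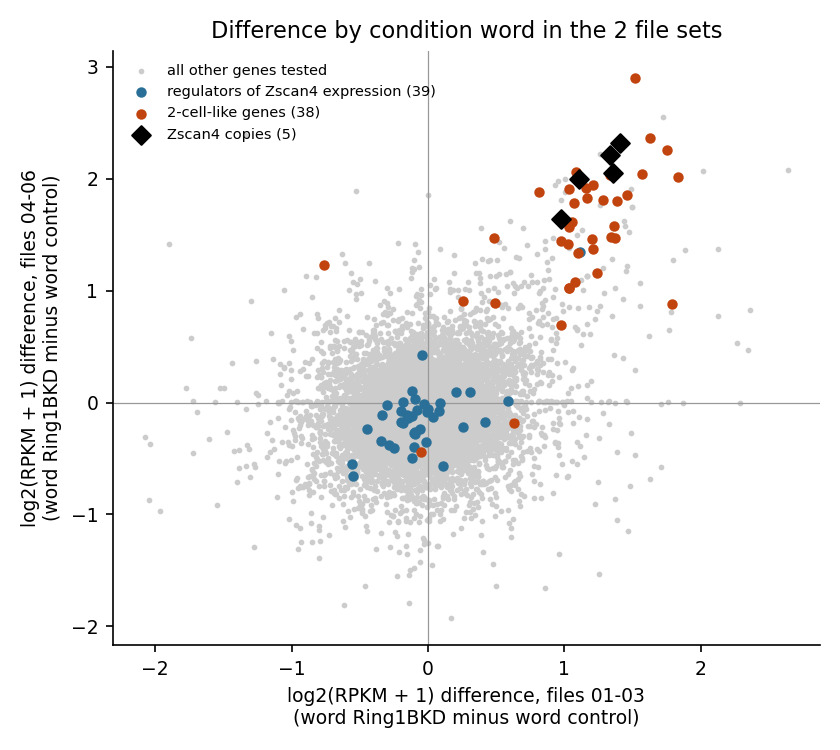
Each point is a gene that passed the filter of 0.5 RPKM on average; the axes give the difference in log2(RPKM + 1) between the libraries with the words Ring1BKD and control in the first set (x, labels control 2 minus control 1) and the second set (y, labels Dzip3-KD 1 minus Ring1B-KD 2), with 1 library per word and set. The 5 *Zscan4* copies (diamonds) and most of the 38 genes of the 2-cell-like list lie at the upper right. Of the 39 genes of the list of regulators, all but 1 lie under the 2-fold mark, and 25 lie below 0 in both sets.

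By sample label, no gene of the 2-cell-like list passed limma's test. With Benjamini-Hochberg adjustment over 11538 genes, 0 of 38 were called for Ring1B-KD against control, for Dzip3-KD against control and for Dzip3-KD against Ring1B-KD, where 0% of all genes were called in each. At an unadjusted p under 0.05, limma gave 589, 1411 and 534 genes over all. For Ring1B-KD against control, 8 of 38 list genes were among them, all lower, against 2.88% of all genes lower. The median log2 difference of the list was -0.97, beside -0.02 over all genes. *Gm8300*, for example, was at 38.1 and 67.7 RPKM in control and at 23 and 15.5 RPKM in Ring1B-KD, a log2 difference of -1.38 ± 0.53 (SE; limma adjusted p = 0.902). For Dzip3-KD against control, 2 of 38 were among them, both lower, against 6.99% of all genes lower, with a list median of -0.51 beside -0.07. Label and set cannot be told apart in this contrast. For Dzip3-KD against Ring1B-KD, 0 of 38 were, where 1.61% of all genes were higher, and the list median was 0.44 beside -0.03. Both libraries labelled Ring1B-KD lay below both controls for 20 of 38 list genes, against 18.8% of all genes.

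Known activators and repressors of *Zscan4* were examined as a further list. All 39 symbols were listed and passed the filter, and 1 of 39 was over 2-fold higher with the word Ring1BKD in both sets, against 0.572% of all genes. This was *Nelfa*, a subunit of the negative elongation factor and a maternal factor that can activate 2-cell genes, named here after its values were seen. *Nelfa* was at 33.8 and 74.3 RPKM in control, at 34.7 and 25.9 RPKM in Ring1B-KD, and at 67.3 and 18.6 RPKM in Dzip3-KD. Its highest libraries were the same as those of the locus, and its Pearson r with the locus sum over the 6 libraries was 0.978.

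Over this list, 25 of 39 genes were lower by any amount with the word Ring1BKD than with the word control in both sets, against 40.7% of all genes. *Rnf2*, a target of the siRNAs, is on the list, at the ratios given above. *Hdac1*, named after its values were seen, had ratios of 0.628 and 0.565. The 6 regulators with the highest levels differed by less than 2-fold, each being lower with the word Ring1BKD in both sets. Ratios of Ring1BKD to control in the first and second set were 0.994 and 0.944 for *Trim28*, a corepressor of retroelements, and 0.881 and 0.881 for *Ncl*, which encodes nucleolin. They were 0.937 and 0.831 for *Uhrf1*, a factor of maintenance DNA methylation, and 0.982 and 0.988 for *Rif1*, a repressor of *Zscan4*. They were 0.897 and 0.927 for *Sumo2* and 0.839 and 0.748 for *Tbx3*, a transcription factor. The list median was -0.09 and -0.13 on the log2 scale, beside the -0.06 and -0.11 over all genes.

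*Dux*, the transcription factor that activates many genes of the 2-cell stage, is on the 2-cell-like list and was named after its values were seen. It was at 2.29 and 5.47 RPKM in control, at 2.93 and 2.24 RPKM in Ring1B-KD, and at 4.23 and 0.689 RPKM in Dzip3-KD. These rest on 14, 38, 20, 15, 28 and 5 reads in that order. Control 2 and Dzip3-KD 1 were again the highest, and on the log2(RPKM + 1) scale the difference between the words Ring1BKD and control stayed under 2-fold in both sets, while the ratio in RPKM was 2.39 in the first and 1.89 in the second.

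Telomere genes and other SCAN zinc finger genes passed the 2-fold mark no more often than genes in general. Of 18 telomere genes listed, 17 were tested and 0 of 17 were over 2-fold higher with the word Ring1BKD in either set, where 1.25% and 1.4% of all genes were, with a median r of 0.05 beside -0.12 over all genes. *Dkc1*, which encodes dyskerin of the telomerase complex, was at 36.3 and 32.7 RPKM in control, at 26.9 and 28.1 RPKM in Ring1B-KD, and at 25.3 and 25.5 RPKM in Dzip3-KD. *Terf1*, a shelterin gene, stayed between 18.4 and 21.2 RPKM over the 6 libraries. Of 26 other SCAN genes listed, 22 were tested and 0 of 22 passed the 2-fold mark in either set, near the same shares of all genes, with a median r of -0.06. *Zscan10*, an mES cell transcription factor gene and the highest of them, was at 29.1 and 23.8 RPKM in control, at 28 and 25.3 RPKM in Ring1B-KD, and at 18.8 and 26.1 RPKM in Dzip3-KD. In each set its lowest library was the one highest in *Zscan4*.

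The genes most like the locus were ranked by Pearson's r of log2(RPKM + 1) with the log2 of the locus sum over the 6 libraries, a description in which all genes share the same 6 libraries. Of 11533 genes, 143 had an r of at least 0.9, or 1.24%, and 31 of the 38 tested genes of the 2-cell-like list did, with a list median of 0.958. The 10 highest were *Ercc4*, *BC080695*, *Gm2016*, *B020004J07Rik*, *Chfr*, *Gm5662*, *Gm4971*, *Tab3*, *Zfp352* and *Mgll*, with r from 1.000 to 0.991, and 3 of the 10 are on the 2-cell-like list.

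Genes at the top of this ranking differed widely in the size of their variation. *Ercc4*, which encodes a subunit of a DNA repair endonuclease, was at 10.1 and 16 RPKM in control, at 8.98 and 6.27 RPKM in Ring1B-KD, and at 14.2 and 5.91 RPKM in Dzip3-KD, a range of 2.71-fold. *BC080695* was at 5.2 and 13.9 RPKM in control, at 4.93 and 1.87 RPKM in Ring1B-KD, and at 12.4 and 1.46 RPKM in Dzip3-KD, a range of 9.5-fold. *Tab3*, a signalling adaptor gene, varied 1.31-fold and *Chfr*, a checkpoint ubiquitin ligase gene, 1.35-fold, so a high r there goes with a small change. *Zfp352*, a zinc finger gene of the 2-cell stage, varied 5.68-fold and *Mgll*, a lipase gene, 4.59-fold.

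Few genes next to the cluster could be compared with it. Within 1 Mb of it on mm9, 51 other genes were annotated and 2 of them were listed. *Vmn2r52*, a vomeronasal receptor gene, was listed at 0 in 5 libraries and at 0.114 RPKM in control 2, too low to compare. *Zik1*, a zinc finger gene, was at 2.37 and 2.57 RPKM in control, at 1.49 and 2.6 RPKM in Ring1B-KD, and at 2.26 and 2.86 RPKM in Dzip3-KD, with an r of -0.18. Its highest library was Dzip3-KD 2, where the *Zscan4* sum was lowest.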

How the data were processed

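The 6 mES cell RNA-seq libraries were deposited as 1 list of RPKM values each. According to the methods of the study, the authors prepared stranded mRNA libraries, sequenced them on a MiSeq instrument, aligned reads to mm9 allowing a single mismatch, and calculated RPKM from reads mapped uniquely to a gene. The annotation is not given in the sources used here, and RPKM does not correct for RNA composition.

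Depth was set by matching the step of 1 read in the RPKM values of 529 genes to GENCODE M1 transcript lengths (mm9). Whole reads were then recovered, with a tolerance of 0.03 read, for 153 of 166 genes looked up; the length this gave equalled an annotated transcript for 28 of them, including 3 of the 5 copies. Groups followed the sample labels. limma 3.58.1 (R 4.3.3) was run with the variance trend on log2(RPKM + 1) of the genes whose mean reached 0.5 RPKM, all 6 libraries in 1 fit, with Benjamini-Hochberg adjustment and a threshold of 0.05. Such differences understate the change of low genes. A count model was not used, because the unit is RPKM. The code was tested on simulated data. Promoters were aligned with mafft 7.526. Fold limits by condition word applied to log2(RPKM + 1), leaving the 5 copies out of the background of 11533 genes.

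Members and gene lists were chosen with earlier results of these data known. Named from each list were up to 6 genes of highest mean RPKM, beside the 10 genes most like the locus and listed neighbours within 1 Mb; exceptions are stated. Alternatives were other pseudocounts, filters, scalings and blocks, and leaving out each library.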

Additional observations from a re-analysis of the deposited data

How the results depend on the processing

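Of 80 alternative values, 77 stayed on the same side of their threshold or within the spread between replicates. That spread was wide, so the 77 include values of both Dzip3-KD differences whose sign changed. They also include many counts of genes called that stayed at 0, and are therefore no measure of stability. By condition word, the log2 difference of the locus between Ring1BKD and control in the first set went from 1.24 to 1.37 with quantile normalization. Of the 10 genes most like the locus, 8 were also among the top 10 with a pseudocount of 0.1, and 5 had a Spearman's rho of 1 with the locus, as 44 genes did. Leaving out 1 library gave log2 differences of the locus by label from -1.94 to -0.70 for Ring1B-KD against control, from -1.94 to 0.31 for Dzip3-KD against control and from -0.62 to 1.63 for Dzip3-KD against Ring1B-KD.

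Same-numbered libraries were not treated as paired in the main fit, and their deviations correlated at -0.04, -0.24 and 0.04 over genes in the 3 pairs of groups. The replicate numbers do not follow the sets, so pairing by set was not tested. A replicate block is balanced over the groups and cannot change a difference of means, which stayed at -1.32 for Ring1B-KD against control. With it, limma called 0 of 38 genes of the 2-cell-like list in each contrast. With the set of file numbers as a block, the list median went from -0.97 to -0.68 for Ring1B-KD against control. It went from -0.51 to -0.05 for Dzip3-KD against control and from 0.44 to 0.78 for Dzip3-KD against Ring1B-KD. Only the label Ring1B-KD had a library in each set. The set term therefore rested on Ring1B-KD 1 against Ring1B-KD 2 alone, whose file words also differ. Over all genes, Dzip3-KD against control gave 0 calls with 6 libraries, 24 with only the 4 libraries compared and 1 with the replicate block. With crossed numbers as the block it gave 182, of which 2 were on the list. The crossed block was chosen after seeing the data. It joined control 2 with Dzip3-KD 1, both with the word Ring1BKD, and control 1 with Dzip3-KD 2. Label and set still cannot be told apart in these calls. The difference of the locus was -1.32 with only control 1 and Dzip3-KD 2, whose label and word are the same. This choice, too, was made after seeing the data. The 2 libraries belong to different sets, so treatment and set cannot be told apart in that difference. Within a set, the log2 difference between the words Dzip3KD and control was -0.24 in the first and -0.16 in the second. With 2 libraries per group, 1 library can set a group's mean, and genes near 3 reads are limited by depth.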
